A study of Mus musculus with 18 samples.

Results

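The BMP and TGF-beta signalling genes described here are Bmp4, Tgfb2, Bmpr1a, Bambi, Smad6, Smad7, Id1, Id2, Id3 and Tgfbi, chosen by name as 10 of the 30142 genes with a probe set of their own on the arrays. Each gene was read from a probe set that the platform annotation assigns to that gene alone, and where a gene had several such probe sets, from the brightest over all arrays. All 10 genes were measured. RNA of sorted mouse lung epithelial cells had been hybridised to 18 Affymetrix arrays, and the Wnt reporter groups were compared within each set of experiments.

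The groups were Wnthigh (GFPhigh cells), Wntlow (GFPlow cells) and Wntnegative (GFPneg cells), with 6 arrays each. All came from mice of the strain TCF/Lef:H2B/GFP aged 8 to 12 weeks, which carry a histone 2B fused to green fluorescent protein under TCF/Lef sites, so that a nucleus glows where beta-catenin has driven transcription. No animal without the reporter and no treated animal was part of the comparison. The protocol took the cells from lungs together with trachea and bronchi, although the tissue label reads distal lungs. Cells carrying CD31 or CD45 were removed on beads, EpCAM positive cells were kept, and each array holds RNA pooled from 3 to 4 animals. 5 genes that mark epithelium were above background on every array, Nkx2-1 at only 4.76 to 7.38 and the others at 9.66 or more, with list means of 12.47 to 13.29 in Wnthigh, 12.56 to 13.24 in Wntlow and 11.95 to 13.01 in Wntnegative arrays. Of these 5, Cdh1, Krt8 and Krt18 were higher and Nkx2-1 lower in Wnthigh than in Wntnegative cells. In such bulk samples a lower value for a gene can mean fewer cells that express it or less of its RNA per cell, and these cannot be told apart.

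BMPs and TGF-betas are secreted ligands that bring together type I and type II receptor kinases on the cell surface. BMP receptors such as Bmpr1a phosphorylate SMAD1, SMAD5 and SMAD9, TGF-beta receptors phosphorylate SMAD2 and SMAD3, and either set enters the nucleus with SMAD4. Id1, Id2 and Id3 encode inhibitors of DNA binding and are widely used as transcriptional readouts of BMP signalling, Tgfbi encodes a matrix protein induced by TGF-beta, and Smad6, Smad7 and Bambi encode inhibitors that the pathways switch on against themselves. In the lung, Bmp4 is known from the distal epithelial tips of the embryo, and Bambi and Id2 are also known as targets of Wnt/beta-catenin signalling in some tissues.

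Promoter windows were searched for 7 of the 10 genes, and those of Id1, Smad7 and Bambi were not searched. Of the 7, 4 are shown because their genes differed in opposite directions between the groups described below: Id3, which was highest in Wnthigh cells, Tgfb2, which was highest in Wntlow cells, and Id2 and Tgfbi, which were highest in Wntnegative cells. Each is the 250 bases before the RefSeq start site on build GRCm38.p6, written 5′ to 3′ in the direction of transcription. Capitals mark GGCGCC, a core of BMP-responsive SMAD sites, and CAGAC, a core of general SMAD sites, searched on both strands (on the other strand CAGAC reads GTCTG).
Id3, chr4:136143572-136143821, plus strand: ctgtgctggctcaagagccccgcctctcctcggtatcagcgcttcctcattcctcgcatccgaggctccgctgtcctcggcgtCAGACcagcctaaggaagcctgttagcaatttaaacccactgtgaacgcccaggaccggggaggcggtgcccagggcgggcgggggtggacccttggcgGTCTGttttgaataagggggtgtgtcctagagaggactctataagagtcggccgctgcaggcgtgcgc
Id2, chr12:25096093-25096342, minus strand: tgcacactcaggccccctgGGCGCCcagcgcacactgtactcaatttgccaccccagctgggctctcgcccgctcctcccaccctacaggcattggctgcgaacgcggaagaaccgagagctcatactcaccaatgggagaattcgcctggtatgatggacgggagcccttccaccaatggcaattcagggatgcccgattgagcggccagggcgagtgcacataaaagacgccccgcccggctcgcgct
Tgfbi, chr13:56609336-56609585, plus strand: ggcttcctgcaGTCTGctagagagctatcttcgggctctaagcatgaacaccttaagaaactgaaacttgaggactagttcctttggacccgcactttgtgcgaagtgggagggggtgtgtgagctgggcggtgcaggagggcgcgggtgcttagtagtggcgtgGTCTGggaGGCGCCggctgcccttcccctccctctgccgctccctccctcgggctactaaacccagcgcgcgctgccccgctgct
Tgfb2, chr1:186705990-186706239, minus strand: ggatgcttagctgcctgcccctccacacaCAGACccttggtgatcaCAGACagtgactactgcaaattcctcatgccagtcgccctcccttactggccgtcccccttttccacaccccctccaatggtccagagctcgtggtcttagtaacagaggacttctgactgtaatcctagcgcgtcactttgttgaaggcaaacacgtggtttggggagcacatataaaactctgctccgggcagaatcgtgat

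The Id3 window held 2 copies of CAGAC, starting 167 and 68 bases before the start site, and no GGCGCC. The Id2 window held 1 GGCGCC, 231 bases before the start site. That of Tgfbi held 1 GGCGCC at 77 bases and CAGAC at 239 and 85 bases, and that of Tgfb2 held CAGAC at 221 and 204 bases. Of the windows not shown, Bmpr1a had 1 GGCGCC, at 198 bases, while Bmp4 and Smad6 had neither motif. ATCAAAG, a core of TCF/Lef sites, was in none of the 7 windows, and no 2 motifs overlapped. Of all 32851 promoter windows of this length, 9.59% held GGCGCC, 42.2% held CAGAC and 3.21% held ATCAAAG. These matches are letters in a short window and not shown to be bound.

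The arrays of experiments 2 to 5 and those of experiments 7 to 9 were on different scales, with array medians of 4.62 to 4.77 and 3.55 to 3.69, and each set held 3 arrays of every group. Values are the deposited log2 values. They reach 19.93, above the limit of 16 for a 16-bit scanner, so differences are log2 differences on that scale and not ratios of RNA. Genes of olfactory and vomeronasal receptors, 1717 in all, stood for unexpressed genes, and the 95th percentile of their values on each array (4.63 to 4.89 in experiments 2 to 5, 3.66 to 3.99 in experiments 7 to 9) served as a background bound. Among arrays, the Wntlow array of experiment 4 had ciliated marker genes at a mean of 10.11, against 14.19 and 12.89 in experiments 3 and 5. The Wntlow arrays of experiments 7 to 9 had 9.59, 11.92 and 10.52, so it stood apart within its set but not within the whole group. Leaving it out was chosen after the data were seen. Values without it are given for Bambi and Tgfbi below and for Bmp4 and Bmpr1a among the processing alternatives. Without it, Smad6 and Smad7 in Wntlow against Wntnegative cells differed by −0.09 and −0.03, against −0.06 and −0.02 with it. Id2 in Wnthigh against Wntlow cells differed by 0.39 without it and 0.26 with it, and none of these 3 was called. The number of arrays limits the precision of every value below.

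Of the 10 genes, 9 differed between Wnthigh and Wntnegative cells in limma at an adjusted p under 0.05, 2 higher and 7 lower. Of all genes 40.3% did so, 15.7% higher and 24.6% lower. With a log2 difference of at least 1 as a further condition, 2 were higher and 4 lower, where 13.9% of all genes were called, 6.62% higher and 7.28% lower. Between Wntlow and Wntnegative cells 3 were higher and 4 lower (25.5% of all genes called, 12.3% higher and 13.2% lower). By at least 1, 2 were higher and 3 lower (7.65% of all genes called, 4.32% higher and 3.32% lower). Between Wnthigh and Wntlow cells 2 were higher and 3 lower, all by at least 1. Of all genes 27.9% were called there, 11.4% higher and 16.4% lower, and 9.1% by at least 1, with 4.27% higher and 4.83% lower. The median log2 difference of the 10 genes was −0.34, −0.04 and −0.11 in these comparisons, against −0.05, −0.03 and −0.01 for all genes. The shares of all genes include dim genes. With a filter on dim genes 17954 remained, and 11393, 7655 and 8623 of them were called in these comparisons, with 8, 7 and 6 of the 10 genes. Larger shares were thus called among genes with signal than among all genes. The offset between the sets was removed by a term in the fit. Without that term 4 of the 10 genes were called for Wnthigh against Wntnegative (Bmp4, Id1, Bambi and Tgfbi), 2 for Wntlow against Wntnegative (Tgfb2 and Tgfbi) and 2 for Wnthigh against Wntlow (Bmp4 and Tgfb2).

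**Figure D1:**
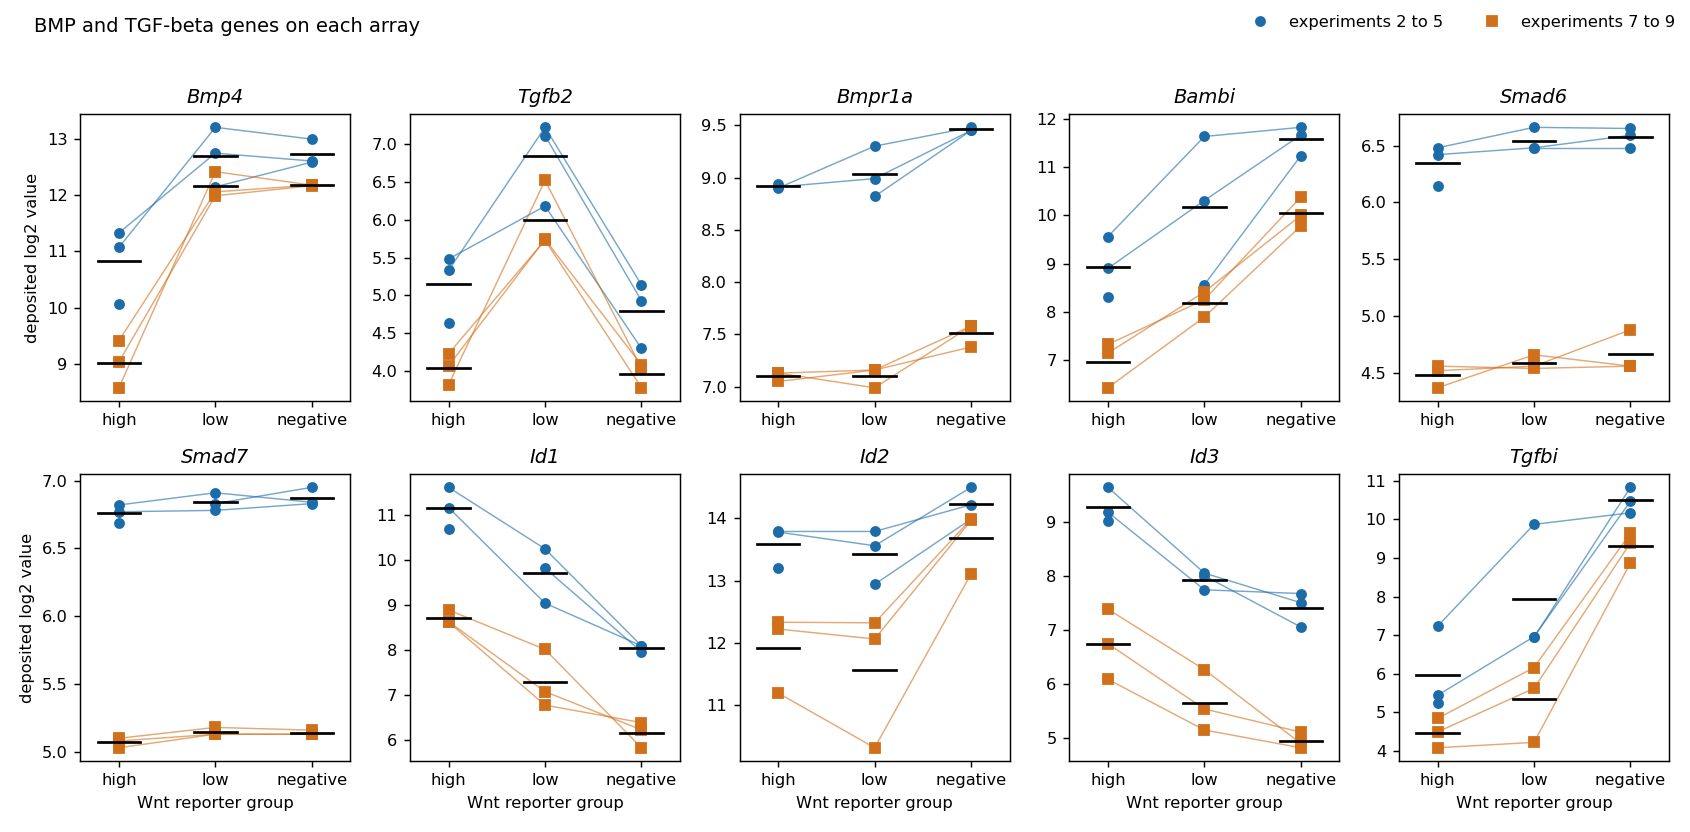
Deposited log2 value (vertical axes, a scale for each gene) of the 10 genes on every array, by Wnt reporter group (horizontal axes), with circles for experiments 2 to 5, squares for experiments 7 to 9, thin lines joining arrays of 1 experiment and bars for the mean of 3 arrays. Bmp4 sits at 8.57 to 11.33 on all 6 Wnthigh arrays and at 11.99 or more on the others, Tgfb2 peaks in Wntlow, and Id1 is highest in Wnthigh and lowest in Wntnegative.

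Bmp4, the BMP ligand of the group, was lowest in Wnthigh cells. In experiments 2, 4 and 5 the Wnthigh arrays had 10.06, 11.33 and 11.07, while the Wntlow arrays of experiments 3, 4 and 5 had 12.15, 12.75 and 13.21 and the Wntnegative arrays 12.59, 12.61 and 13.001. In experiments 7, 8 and 9 the values were 8.57, 9.03 and 9.41 in Wnthigh, 12.42, 11.99 and 12.06 in Wntlow and 12.18, 12.17 and 12.18 in Wntnegative arrays. Every Wnthigh array lay under every other array of its set. The fall was −2.54 against Wntnegative (SE 0.28, adjusted p = 1.51e-06) and −2.52 against Wntlow (SE 0.28, adjusted p = 7.42e-06), in 5 of 5 experiments that had all groups. It measured −1.91 and −1.88 in experiments 2 to 5 and −3.17 and −3.15 in experiments 7 to 9, and the difference between the sets did not pass an interaction test (lowest adjusted p of any of the 10 genes 0.545). Wntlow and Wntnegative cells differed by −0.02, with a 95% interval of −0.62 to 0.57 and adjusted p = 0.963, and their arrays overlapped in both sets.

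Tgfb2, a TGF-beta ligand, was highest in Wntlow cells. The Wntlow arrays had 7.11, 6.18 and 7.22 in experiments 3 to 5 and 6.52, 5.73 and 5.74 in experiments 7 to 9. The Wnthigh arrays had 4.64, 5.48 and 5.33 in experiments 2, 4 and 5 and 3.82, 4.23 and 4.07 in experiments 7 to 9, and the Wntnegative arrays 4.93, 4.30 and 5.14 in experiments 3 to 5 and 4.04, 3.78 and 4.08 in experiments 7 to 9. No Wntlow array overlapped with the other groups of its set, and the Wnthigh array of experiment 2 and the Wntnegative array of experiment 4 were under the background bound. Tgfb2 rose by 2.04 in Wntlow against Wntnegative cells (SE 0.21, adjusted p = 6.31e-06) and was lower by −1.82 in Wnthigh than in Wntlow cells (SE 0.21, adjusted p = 9.82e-06), each in 5 of 5 experiments. The first of these differences was 2.04 and 2.03 within the sets, and the other −1.69 and −1.96. Wnthigh and Wntnegative cells differed by 0.21 (95% interval −0.23 to 0.66, adjusted p = 0.459), and their arrays overlapped in both sets.

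Bmpr1a, a type I BMP receptor, was slightly lower in both groups with reporter signal than in Wntnegative cells. In experiments 2 to 5 the Wnthigh arrays had 8.94, 8.90 and 8.91, the Wntlow arrays 8.82, 9.30 and 8.99 and the Wntnegative arrays 9.45, 9.48 and 9.45. In experiments 7 to 9 the Wnthigh arrays had 7.05, 7.13 and 7.13, the Wntlow arrays 7.16, 6.99 and 7.16 and the Wntnegative arrays 7.58, 7.58 and 7.38. All Wntnegative arrays lay above the other arrays of their set. The differences were −0.48 for Wnthigh (SE 0.07, adjusted p = 1.94e-05) and −0.42 for Wntlow cells (SE 0.07, adjusted p = 0.000222), each in 5 of 5 experiments, and neither passed without the term for the set (adjusted p = 1 in each). In experiments 2 to 5 alone the difference in Wntlow cells was not called (adjusted p = 0.0577). Between Wnthigh and Wntlow cells the difference was −0.06 (95% interval −0.20 to 0.08, adjusted p = 0.632).

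Bambi, a membrane protein that resembles a type I receptor but lacks the kinase and blocks TGF-beta and BMP receptor complexes, was graded in the order opposite to reporter signal. The Wnthigh arrays had 8.31, 9.56 and 8.90, the Wntlow arrays 8.56, 11.64 and 10.31 and the Wntnegative arrays 11.24, 11.83 and 11.67 in experiments 2 to 5. The Wnthigh arrays of experiments 7 to 9 had 6.42, 7.32 and 7.14, the Wntlow arrays 7.89, 8.25 and 8.41 and the Wntnegative arrays 9.78, 10.38 and 9.997. The groups were fully apart in experiments 7 to 9, whereas in experiments 2 to 5 the Wntlow arrays reached into both other groups. Bambi fell by 2.87 in Wnthigh (SE 0.38, adjusted p = 1.06e-05) and by 1.64 in Wntlow cells (SE 0.38, adjusted p = 0.00405) against Wntnegative cells. Without the Wntlow array of experiment 4 the difference in Wntlow cells was −1.97 (adjusted p = 0.000134), and in experiments 2 to 5 alone it was −1.41 and not called (adjusted p = 0.278). The difference between Wnthigh and Wntlow cells, −1.23 (SE 0.38, adjusted p = 0.0213), had the same sign in 5 of 5 experiments. Its call held in only 12 of 20 other settings. It did not pass when experiment 2, 5, 7, 8 or 9 was left out (adjusted p = 0.0529 to 0.0831) or with 2 groups at a time (adjusted p = 0.0687). In experiments 2 to 5 alone it was −1.25 and not called (adjusted p = 0.343), and in experiments 7 to 9 alone −1.22 (adjusted p = 0.0159). Without the Wntlow array of experiment 4 it was −0.90 (adjusted p = 0.038).

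Smad6 and Smad7, the inhibitory SMADs that compete for receptors and recruit ubiquitin ligases, differed by 0.20 at most between group means. Smad6 ran from 6.14 to 6.48 in Wnthigh, from 6.48 to 6.66 in Wntlow and from 6.48 to 6.65 in Wntnegative arrays of experiments 2 to 5. In experiments 7 to 9 it ran from 4.37 to 4.56 in Wnthigh, from 4.54 to 4.66 in Wntlow and from 4.56 to 4.88 in Wntnegative arrays. The groups met or overlapped in both sets, and 4 of the 9 arrays of each set carried the same value, 6.48 and 4.56. At least 3 arrays with 1 shared value were found for 37.7% and 48.1% of all genes in the 2 sets. Smad6 was lower by −0.20 in Wnthigh than in Wntnegative cells (SE 0.07, adjusted p = 0.0255, same sign in 4 of 5 experiments), a call that held in 11 of 20 other settings and was lost in each set alone, without experiment 2, 5, 7 or 8 and with centred arrays (adjusted p = 0.0809).

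Smad7 showed a still smaller difference in the same comparison. In experiments 2, 4 and 5 its Wnthigh arrays had 6.69, 6.82 and 6.77, and its Wntnegative arrays of experiments 3 to 5 had 6.95, 6.84 and 6.83. In experiments 7 to 9 the Wnthigh arrays had 5.03, 5.10 and 5.08, and the Wntnegative arrays 5.13, 5.16 and 5.13. The groups did not overlap, 4 of the 9 arrays of experiments 7 to 9 carried 1 value, 5.13, and the difference was −0.09 (SE 0.03, adjusted p = 0.0312). The call held in only 7 of 20 other settings. It was lost with the experiment as a block (adjusted p = 0.111), with centred arrays (adjusted p = 0.189) and in either set alone (adjusted p = 0.19 in each). The filter on dim genes (adjusted p = 0.0652), a trended robust variance (adjusted p = 0.0785) and 2 groups at a time (adjusted p = 0.0504) lost it too. So did leaving out the term for the set, or experiment 2, 3, 7, 8 or 9. The Wntlow values, 6.78 to 6.91 and 5.13 to 5.18, differed from Wntnegative by −0.02 (95% interval −0.09 to 0.05, adjusted p = 0.778), although with quantile normalization over all arrays that difference was −0.17 (adjusted p = 0.00264).

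**Figure D2:**
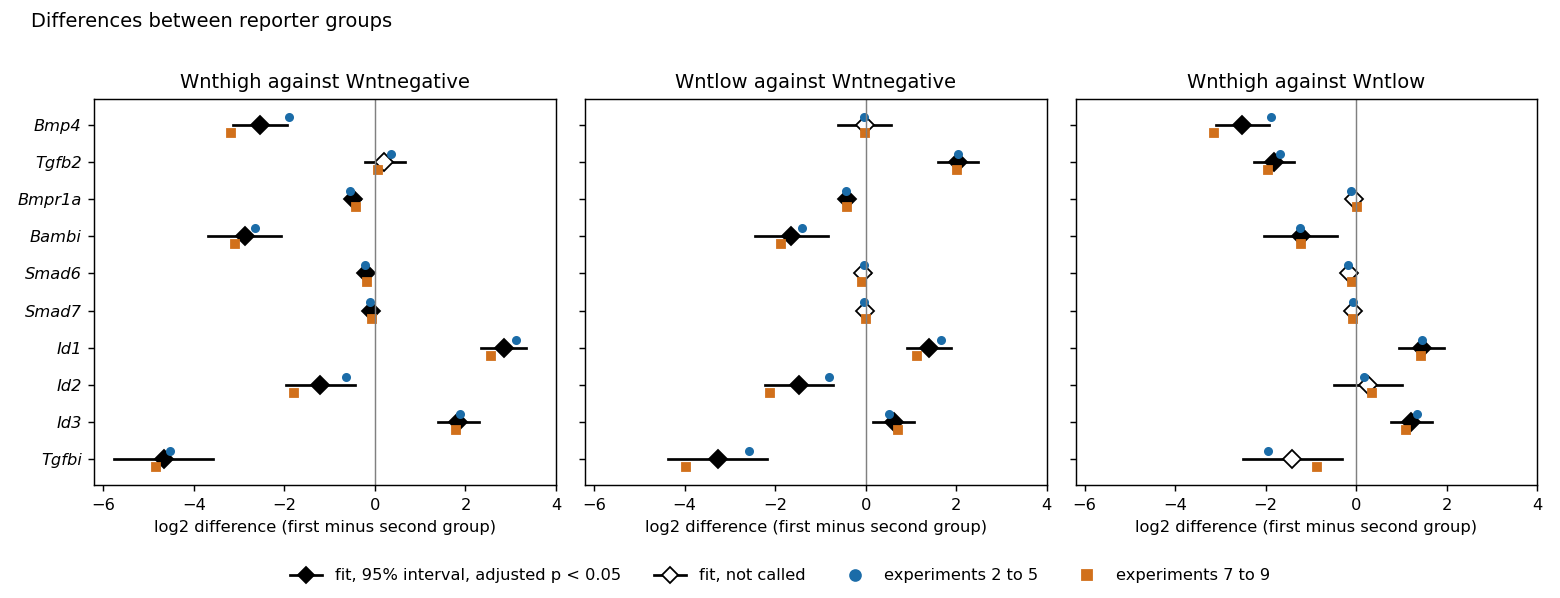
Log2 difference (horizontal axes) of the 10 genes in the 3 comparisons, as fitted over 18 arrays (diamonds with 95% intervals, filled where adjusted p is under 0.05) and within experiments 2 to 5 (circles) and 7 to 9 (squares). Id1 and Id3 lie to the right of 0 in each comparison, Id2, Bambi and Tgfbi lie to the left of it against Wntnegative, and the 2 inhibitory SMADs lie close to 0.

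Of the Id genes, Id1 was graded with reporter signal. Its Wnthigh arrays had 10.70, 11.17 and 11.62, its Wntlow arrays 9.82, 9.04 and 10.25 and its Wntnegative arrays 7.96, 8.09 and 8.09 in experiments 2 to 5. The Wnthigh arrays of experiments 7 to 9 had 8.62, 8.89 and 8.63, the Wntlow arrays 6.77, 8.01 and 7.07 and the Wntnegative arrays 6.38, 5.82 and 6.22. The 3 groups did not overlap in either set. Id1 rose by 2.85 in Wnthigh (SE 0.23, adjusted p = 6.03e-08) and by 1.40 in Wntlow cells (SE 0.23, adjusted p = 0.000316) against Wntnegative cells. It was also higher by 1.45 in Wnthigh than in Wntlow cells (SE 0.23, adjusted p = 0.00014). Each of these signs was seen in 5 of 5 experiments, and the last difference was 1.46 and 1.43 within the sets. The rise in Wntlow cells was 1.14 in experiments 7 to 9 alone (adjusted p = 0.05).

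Id3 followed the same order with smaller steps. The Wnthigh arrays had 9.03, 9.19 and 9.65, the Wntlow arrays 8.01, 7.75 and 8.06 and the Wntnegative arrays 7.06, 7.68 and 7.51 in experiments 2 to 5. In experiments 7 to 9 the values were 6.09, 7.39 and 6.75 in Wnthigh, 5.15, 6.27 and 5.54 in Wntlow and 4.82, 4.90 and 5.11 in Wntnegative arrays. The Wntlow array of experiment 8, at 6.27, lay above the Wnthigh array of experiment 7, at 6.09, while within each experiment Wnthigh was higher. Id3 rose by 1.84 in Wnthigh against Wntnegative (SE 0.21, adjusted p = 2.39e-06) and by 1.22 against Wntlow cells (SE 0.21, adjusted p = 0.000273), where it was 1.09 and not called in experiments 7 to 9 alone (adjusted p = 0.0941). The rise in Wntlow against Wntnegative cells, 0.62 (SE 0.21, adjusted p = 0.0418), was seen in 5 of 5 experiments but was lost without experiment 3, 5, 8 or 9 (adjusted p = 0.0784 to 0.131) and with quantile normalization (0.48, adjusted p = 0.10).

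Id2 went the other way and was highest in Wntnegative cells. The Wnthigh arrays had 13.21, 13.79 and 13.78, the Wntlow arrays 12.94, 13.79 and 13.56 and the Wntnegative arrays 13.99, 14.22 and 14.50 in experiments 2 to 5. The values of experiments 7 to 9 were 11.19, 12.22 and 12.33 in Wnthigh, 10.31, 12.06 and 12.32 in Wntlow and 13.11, 13.97 and 13.99 in Wntnegative arrays. Wnthigh and Wntlow arrays overlapped and lay under all Wntnegative arrays of their set. Id2 fell by 1.21 in Wnthigh (SE 0.36, adjusted p = 0.012) and by 1.47 in Wntlow cells (SE 0.36, adjusted p = 0.00589), in 5 of 5 experiments each. Neither set alone reached the threshold, with −0.64 and −0.81 in experiments 2 to 5 (adjusted p = 0.11 and 0.104) and −1.78 and −2.12 in experiments 7 to 9 (adjusted p = 0.0652 and 0.0527). Between Wnthigh and Wntlow cells the difference was 0.26 (95% interval −0.50 to 1.02, adjusted p = 0.706).

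Tgfbi, the TGF-beta-induced matrix protein gene, had the largest differences of the 10 genes against Wntnegative cells. Its Wnthigh arrays had 5.25, 7.23 and 5.44, its Wntlow arrays 6.94, 9.87 and 6.96 and its Wntnegative arrays 10.83, 10.17 and 10.47 in experiments 2 to 5. The arrays of experiments 7 to 9 had 4.08, 4.49 and 4.84 in Wnthigh, 4.22, 5.62 and 6.16 in Wntlow and 8.87, 9.39 and 9.64 in Wntnegative. All Wntnegative arrays lay above the others of their set, and experiment 4 was the highest within both Wnthigh and Wntlow. Every array was above the background bound, but some came near it. Wnthigh arrays had 5.25 with a bound of 4.76 in experiment 2 and 4.08 with a bound of 3.8 in experiment 7. The Wntlow array of experiment 7 had 4.22 with a bound of 3.72, and such values limit how the differences can be read. Tgfbi fell by 4.67 in Wnthigh (SE 0.52, adjusted p = 1.64e-06) and by 3.27 in Wntlow cells (SE 0.52, adjusted p = 0.00022). Within experiment 4 these differences were −2.94 and −0.30, against −5.04 and −3.51 in experiment 5. Without the Wntlow array of experiment 4 the fall in Wntlow cells was −3.77 (adjusted p = 1.93e-06), and in experiments 2 to 5 alone it was −2.57 and not called (adjusted p = 0.117). Wnthigh and Wntlow cells differed by −1.41, which did not pass (SE 0.52, adjusted p = 0.0547). This difference was −0.90 without the Wntlow array of experiment 4 (adjusted p = 0.0923), and it passed without the whole of experiment 4 (−1.16, adjusted p = 0.0131) or 7 (−1.66, adjusted p = 0.0411).

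The 3 Id genes thus split in the comparison with Wntnegative cells, with Id1 and Id3 higher and Id2 lower in both groups that had reporter signal. The profiles of Id1 and Id3 over the 18 arrays, each taken less its mean in the set, had a root mean square difference of 0.53 in log2, while Id2 was 1.79 from Id1 and 1.37 from Id3. Bambi was 0.90 from Bmp4, 0.92 from Id2 and 0.99 from Tgfbi. By the same measure, among 10877 genes with signal in some group, the nearest to Bmp4 were Ehf (0.27), Antkmt (0.30) and Serinc5 (0.31). Ehf, which encodes an ETS factor of epithelia, averaged 8.47 in Wnthigh, 10.72 in Wntlow and 10.86 in Wntnegative arrays. Nearest to Id1 were Crocc2 (0.29), Nr2c2ap (0.30) and Ikbke (0.31), and Crocc2, a relative of the ciliary rootlet gene, averaged 8.08, 6.49 and 5.05 in the same order of groups. Pm20d1 (0.27), Haus7 (0.29) and Pde8b (0.32) were nearest to Bambi. All profiles share the same 18 arrays, so these distances describe likeness only.

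Beyond the 10 genes, 60 other genes listed for these pathways were tested. Between Wnthigh and Wntnegative cells 17 were higher and 25 lower (28.3% and 41.7% of the list, with 15.7% and 24.6% of all genes, dim ones included). Between Wntlow and Wntnegative cells 12 were higher and 19 lower (20% and 31.7%, with 12.3% and 13.2% of all genes). Between Wnthigh and Wntlow cells 13 were higher and 17 lower (21.7% and 28.3%, with 11.4% and 16.4% of all genes). These shares of all genes also stand beside the counts of each list below. The median log2 differences of the list were −0.09, −0.04 and −0.03, close to those of all genes.

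Of 11 other ligand genes, 2 were higher and 5 lower in Wnthigh than in Wntnegative cells, 3 and 2 in Wntlow than in Wntnegative cells, and 2 and 4 in Wnthigh than in Wntlow cells. Tgfb3, a TGF-beta ligand, had the largest difference, with a mean of 6.43 ± 1.71 in Wnthigh, 9.27 ± 1.68 in Wntlow and 12.45 ± 0.40 in Wntnegative arrays (SD over both sets, n = 6 here and below). It fell by 6.02 in Wnthigh (SE 0.65, adjusted p = 1.29e-06) and by 3.18 in Wntlow cells (SE 0.65, adjusted p = 0.00172) against Wntnegative cells, and by 2.84 in Wnthigh against Wntlow cells (SE 0.65, adjusted p = 0.00298). Tgfb1 fell with it, by 2.44 in Wnthigh cells (adjusted p = 1.81e-05, with 4 of 6 Wnthigh arrays above the bound) and had a difference of −1.72 in Wntlow cells (adjusted p = 0.00124), or −2.10 without the Wntlow array of experiment 4 (adjusted p = 8.72e-07), which was the highest of its group for Tgfb1 at 7.73. Tgfb1 and Tgfb3 were thus highest in Wntnegative cells, where Tgfb2 was highest in Wntlow cells.

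Among BMP ligands, Bmp3, an atypical BMP that can oppose others, averaged 5.98 ± 1.29 in Wnthigh, 8.48 ± 1.10 in Wntlow and 8.93 ± 1.15 in Wntnegative arrays. It fell by 2.96 in Wnthigh against Wntnegative cells (SE 0.25, adjusted p = 8.05e-08) and its difference against Wntlow cells was −2.50 (SE 0.25, adjusted p = 3.73e-06). Bmp5 fell by 2.30 in Wnthigh against Wntlow cells (SE 0.23, adjusted p = 4.05e-06), with means of 10.01 ± 1.40 and 12.31 ± 0.72. Bmp3 and Bmp5 thus shared with Bmp4 the lowest level in Wnthigh cells. Bmp6 and Bmp7 were not above the bound on any array. Inhbb, which encodes an activin and inhibin subunit, rose by 0.92 in Wntlow against Wntnegative cells (SE 0.23, adjusted p = 0.00691), and in Wnthigh cells, where it was named after its values were seen, by 1.95 (adjusted p = 3.27e-06).

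Of 12 other receptor genes, 5 were higher and 4 lower in Wnthigh than in Wntnegative cells, 3 and 4 in Wntlow than in Wntnegative cells, and 3 and 3 in Wnthigh than in Wntlow cells. Bmpr1b, the other BMP type I receptor of the Bmpr1 pair, peaked in Wntlow cells as Tgfb2 did. Its mean was 6.73 ± 1.10 in Wnthigh, 9.13 ± 0.79 in Wntlow and 4.83 ± 0.61 in Wntnegative arrays. It rose by 4.30 in Wntlow (SE 0.36, adjusted p = 8.25e-07) and by 1.90 in Wnthigh cells (SE 0.36, adjusted p = 0.000396) against Wntnegative cells, whereas Bmpr1a was lower in both. Tgfbr3, a co-receptor that presents TGF-beta 2 to the signalling receptors, rose by 1.23 in Wnthigh against Wntnegative (adjusted p = 3.07e-07) and by 1.32 against Wntlow cells (adjusted p = 2.26e-06). Acvr1b, an activin type I receptor, rose by 0.98 in Wnthigh against Wntnegative cells (adjusted p = 6.64e-06), and Tgfbr2, the type II receptor of TGF-beta, by 0.79 in Wnthigh against Wntlow cells (adjusted p = 0.00042). In Wntlow against Wntnegative cells the type II receptors Acvr2a and Bmpr2 fell by 0.94 (adjusted p = 7.37e-05) and 0.50 (adjusted p = 0.00366). Eng was not above the bound on any array.

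All 12 other SMADs and SMAD inhibitors were called between Wnthigh and Wntnegative cells, 5 higher and 7 lower. Of all genes 40.3% were called in that comparison, and 11393 of the 17954 left by the filter on dim genes. Of the 12, 1 was higher and 7 lower in Wntlow against Wntnegative cells, and 4 and 4 in Wnthigh against Wntlow cells. Smad9, a BMP-activated SMAD, rose by 1.41 in Wnthigh against Wntnegative (SE 0.17, adjusted p = 4.28e-06) and by 1.26 against Wntlow cells (SE 0.17, adjusted p = 3.16e-05), and Smad5 by 0.70 against Wntlow cells (adjusted p = 1.59e-05). Smad1 and Smad2 fell in Wntlow against Wntnegative cells by 0.62 (adjusted p = 0.000155) and 0.55 (adjusted p = 0.000341). Smurf1, a ubiquitin ligase that removes BMP SMADs and receptors, fell by 1.37 in Wnthigh (adjusted p = 1.85e-07) and by 0.98 in Wntlow cells (adjusted p = 3.56e-05) against Wntnegative cells. Skil, a SMAD co-repressor, fell by 1.22 in Wnthigh against Wntnegative cells (adjusted p = 1.51e-07), and Pmepa1, a TGF-beta-induced inhibitor, rose by 0.94 in Wnthigh against Wntlow cells (adjusted p = 3.93e-05).

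Of 15 secreted antagonists and binding proteins, 3 were higher and 4 lower in Wnthigh than in Wntnegative cells, 3 and 2 in Wntlow than in Wntnegative cells, and 1 and 2 in Wnthigh than in Wntlow cells. Crim1, a membrane protein that binds BMPs, averaged 13.47 ± 0.26 in Wnthigh, 11.30 ± 0.99 in Wntlow and 7.28 ± 0.96 in Wntnegative arrays, and rose by 4.03 in Wntlow against Wntnegative cells (adjusted p = 1.43e-06) and by 2.17 in Wnthigh against Wntlow cells (adjusted p = 0.000172). Ltbp3, which holds latent TGF-beta in the matrix, fell by 2.24 in Wnthigh (adjusted p = 9.73e-06) and by 1.97 in Wntlow cells (adjusted p = 0.00013) against Wntnegative cells. Its relatives moved less. Ltbp2 rose by 0.64 in Wntlow against Wntnegative cells (adjusted p = 8.93e-06) and was lower by −0.43 in Wnthigh than in Wntlow cells (adjusted p = 0.000139), and Ltbp4 by −0.32 in the same comparison (adjusted p = 0.0111). Nbl1, a BMP antagonist, rose by 0.79 in Wnthigh against Wntnegative cells (adjusted p = 9.94e-06).

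Of 3 integrin chains that release TGF-beta from its latent form, 2 were lower in Wnthigh cells than in each of the other groups and 1 in Wntlow than in Wntnegative cells. Itgb8, the remaining chain, averaged 3.38, 3.39 and 3.40 in Wnthigh, Wntlow and Wntnegative arrays and was not called. These means lay under the background bound of every array. Itgb6 fell by 1.24 in Wnthigh against Wntnegative (SE 0.21, adjusted p = 0.000124) and by 1.22 against Wntlow cells (SE 0.21, adjusted p = 0.000237). Itgav, its partner, fell by 0.73 (adjusted p = 2.2e-05) and by 0.34 (adjusted p = 0.0207) in the same comparisons and by 0.39 in Wntlow against Wntnegative cells (adjusted p = 0.00967). The smallest of these was lost with centred arrays and without experiment 8 or 9 (adjusted p = 0.0502 to 0.0618), and that of Wntlow without experiment 8 (adjusted p = 0.0524).

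Of 7 other targets, 2 were higher and 3 lower in Wnthigh than in Wntnegative cells, 2 and 3 in Wntlow than in Wntnegative cells, and 3 and 2 in Wnthigh than in Wntlow cells. Hey1, which Notch also induces, averaged 12.77 ± 0.67 in Wnthigh, 9.67 ± 1.38 in Wntlow and 4.90 ± 0.44 in Wntnegative arrays, where 5 of 6 were above the bound. It rose by 4.78 in Wntlow against Wntnegative cells (adjusted p = 1.69e-06) and by 3.09 in Wnthigh against Wntlow cells (adjusted p = 4.11e-05). Id4, the remaining Id gene, rose by 0.38 in Wnthigh against Wntlow cells (SE 0.07, adjusted p = 0.000914), in the direction of Id1 and Id3. In experiments 7 to 9 alone this rise was 0.28 and not called (adjusted p = 0.103). Wntlow arrays of that set reached only 4.07 for Id4, near their background bounds, which limits how the rise can be read. Col4a1, a collagen of basement membrane, fell by 2.06 in Wnthigh (adjusted p = 3.95e-06) against Wntnegative cells, and its difference in Wntlow cells was −1.75 (adjusted p = 9.11e-05). Timp3, a protease inhibitor of the matrix, fell by 1.8 in Wnthigh against Wntnegative (adjusted p = 1.26e-07) and by 0.97 against Wntlow cells (adjusted p = 0.000157), and Dusp6, a phosphatase of ERK, by 1.0 in Wntlow against Wntnegative cells (adjusted p = 0.00656). Without the term for the set of experiments, 33 of the 50 differences of the genes outside the 10 that are given here by rule did not pass. In fits of 1 set alone 24 calls were lost, among them those of Tgfb3 and Tgfb1 in Wntlow against Wntnegative cells in experiments 2 to 5 (−2.25, adjusted p = 0.288, and −1.38, adjusted p = 0.222), of Tgfb3 in Wnthigh against Wntlow cells (−3.03, adjusted p = 0.154) and of Inhbb (1.03, adjusted p = 0.194). Bmpr2 in Wntlow against Wntnegative cells and Itgav in both comparisons that include Wntlow cells passed in neither set alone. No sign turned in any setting.

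**Figure D3:**
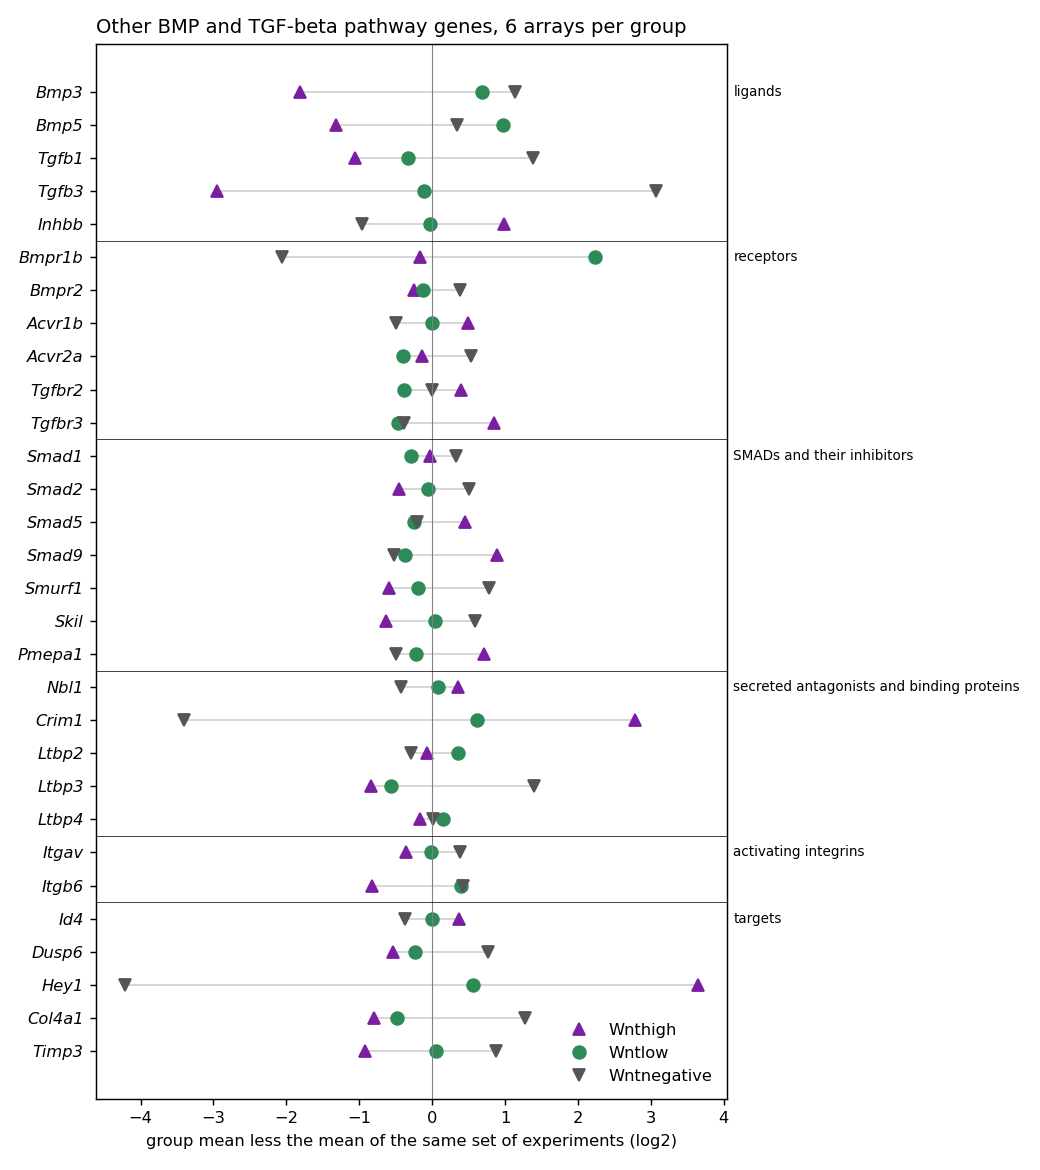
Group means over 6 arrays (Wnthigh, Wntlow and Wntnegative by symbol) of the other pathway genes named by rule, as log2 value less the mean of the same set of experiments (horizontal axis), arranged by role. Hey1 and Crim1 stand highest in Wnthigh, Tgfb3 in Wntnegative, and Bmpr1b stands highest in Wntlow.

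Markers of lung cell types moved with the same groups, and their part in the differences above was not tested. All 9 measured ciliated markers were higher in Wnthigh than in Wntnegative cells and in Wntlow than in Wntnegative cells, with list means of 14.92 to 15.33 in Wnthigh, 9.59 to 14.19 in Wntlow and 4.72 to 7.60 in Wntnegative arrays, so they followed the order of Id1 and Id3. Of 10 alveolar type II markers 9 were lower in Wnthigh and 3 in Wntlow than in Wntnegative cells, and 5 were lower in Wnthigh than in Wntlow cells. Sftpc, not called in any comparison, was at 18.54 to 19.93, near the highest value of each array, which limits how its lack of difference can be read. The type II list means, 11.87 to 16.31, 14.99 to 17.34 and 17.51 to 18.47, ran in the order of Bambi and Tgfbi. Of 11 alveolar type I markers 8 and 6 were lower (and 2 and 1 higher) in Wnthigh and Wntlow than in Wntnegative cells. Between Wnthigh and Wntlow cells 4 of the 11 were lower, 2 higher and 5 not called, so the type I markers did not share 1 order. Among Wnthigh arrays of experiments 2 to 5 the type II list was highest in experiment 4, at 16.31 against 12.49 and 14.61, the array that also had the highest Tgfbi. Goblet markers peaked in Wntlow cells, as Tgfb2 did, with 6 of 6 higher than in Wntnegative and 6 of 6 lower in Wnthigh than in Wntlow cells, and list means of 7.44 to 11.71 in Wnthigh, 12.64 to 14.80 in Wntlow and 4.37 to 5.87 in Wntnegative arrays. Club markers were at 13.85 to 15.80, 15.91 to 17.55 and 10.45 to 12.03, with 6 of 6 higher than in Wntnegative cells in both other groups, and 4 of 6 lower in Wnthigh than in Wntlow cells.

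Cells that the sort should remove also express several of these genes, and some of their markers were above background. Of 9 endothelial markers, Pecam1, Cdh5, Tie1, Emcn, Cldn5 and Ramp2 were under the bound on all arrays, with list means of 3.56 to 4.97 in Wnthigh, 4.17 to 5.40 in Wntlow and 3.90 to 4.97 in Wntnegative arrays. Kdr, Esam and Tek were above it on some arrays. Kdr followed the order of Tgfb2, higher by 6.01 in Wntlow than in Wntnegative cells (adjusted p = 5.58e-07), and Esam that of Tgfbi, lower by −4.26 in Wnthigh than in Wntnegative cells (adjusted p = 4.98e-06). Of 9 fibroblast and smooth muscle markers, Col1a2, Lum, Tcf21, Pdgfrb and Myh11 were under the bound on all arrays, with list means of 3.23 to 4.75, 3.31 to 4.91 and 3.22 to 4.62, while Col1a1 was above it on all arrays of experiments 2 to 5, at 4.98 to 5.21. Dcn reached 7.95, on the Wntlow array of experiment 4, and was called, higher by 1.11 in Wntlow than in Wntnegative cells (adjusted p = 0.0293). Ptprc, Tyrobp and Cd3e of 6 blood markers were under the bound on all arrays, while 3 of the 6 were lower in Wnthigh than in Wntnegative cells, with list means of 4.91 to 6.78, 5.54 to 7.18 and 6.56 to 7.37. The 3 were Cd68, a macrophage marker, at −1.49 (adjusted p = 0.0011), Cd79a at −0.23 (adjusted p = 0.0177) and Lyz1, a lysozyme gene, at −4.88 (adjusted p = 0.000809). Lyz1 was at 11.01 to 17.09 in Wnthigh, 13.88 to 18.55 in Wntlow and 18.18 to 19.87 in Wntnegative arrays. Lyz2 of the alveolar type II list ran beside it, at 13.1 to 18.38, 16.26 to 19.52 and 18.4 to 19.92. Which cells gave the Lyz1 signal was not tested. Cd68 was above the bound on every array, at 5.38 to 8.15 in Wnthigh, 6.25 to 8.77 in Wntlow and 6.69 to 9.46 in Wntnegative arrays, so that it moved with Bambi and Tgfbi in this comparison. Of 4 basal markers 1 was called, higher in Wntlow than in Wntnegative cells, with list means of 3.64 to 4.71, 3.68 to 4.83 and 3.50 to 4.73.

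**Figure D4:**
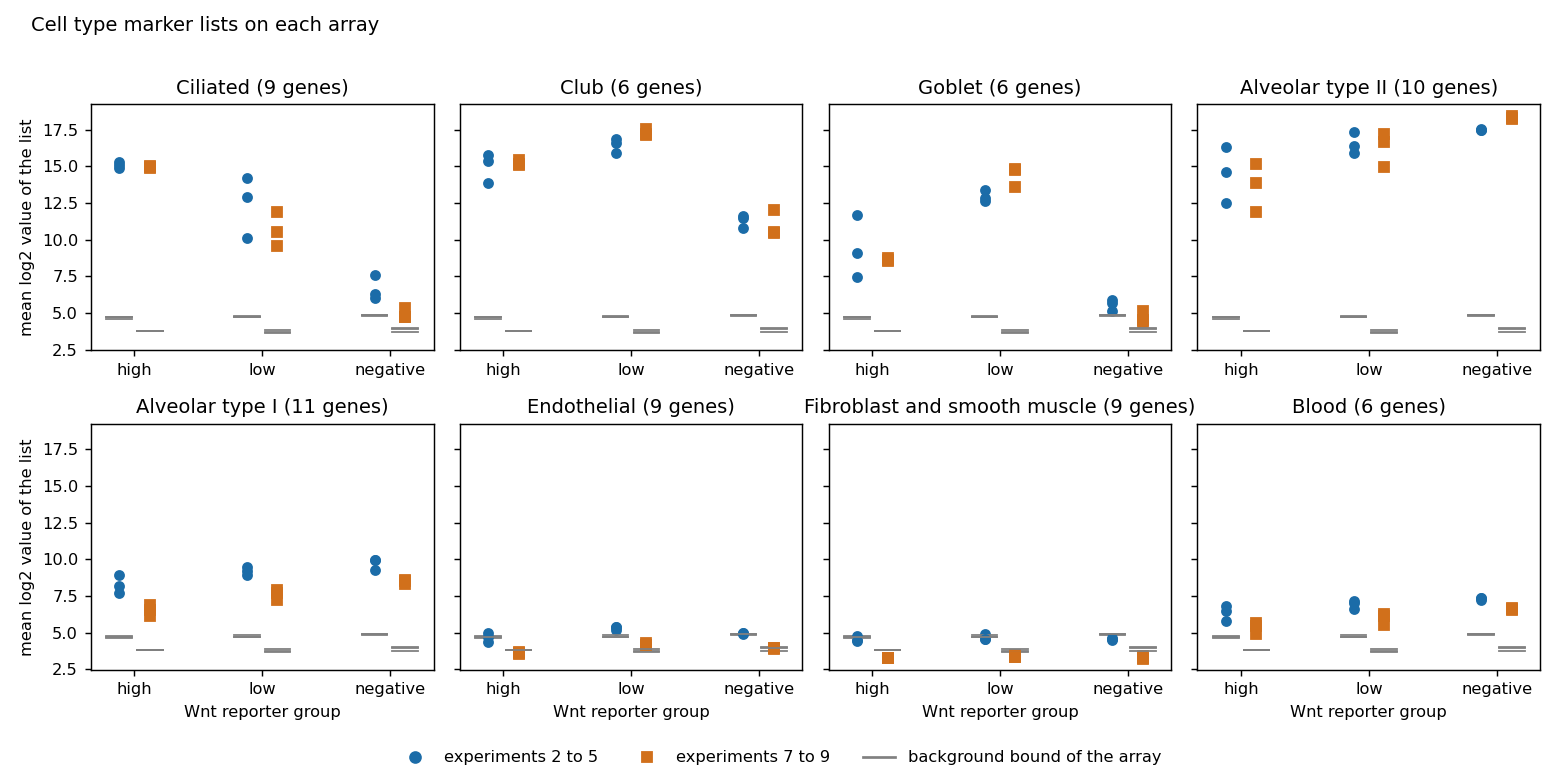
Mean log2 value (vertical axis) of 8 cell type marker lists on every array, by Wnt reporter group (horizontal axis), with circles for experiments 2 to 5, squares for experiments 7 to 9 and grey lines for the background bound of each array. Ciliated markers lie at 14.92 to 15.33 in Wnthigh and at 4.72 to 7.60 in Wntnegative arrays, goblet markers peak in Wntlow, and endothelial and fibroblast lists lie near the bound.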

How the data were processed

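The authors deposited RMA values on the log2 scale, per the submitters' processing notes, for 72688 probe sets. Which software made them and on which genome build is not given in the sources used here. They fell into 2 sets with different medians and decimals, experiments 2 to 5 and 7 to 9. Probe sets with 1 gene symbol, 30604 of 65956 that are not controls (2146 had several and 33206 none), gave 30142 genes, with 827 symbols updated and the brightest probe set taken for 355 genes. Dim genes were kept.

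A single limma fit (version 3.58.1, R 4.3.3, moderated and two-sided) over the 18 arrays had the group and the set of experiments as terms. Its p-values, adjusted after Benjamini and Hochberg over all genes of a comparison, were read at 0.05. Replicates were pools of animals from separate experiments. On simulated data of 30142 genes for Wnthigh against Wntnegative, 90% of log2 changes of 1 and 99% of changes of 2 were recovered, with 10 false calls. The simulation had independent noise, no pairing of arrays and only 100 genes changed by each amount. In the data 12142 genes were called, so these rates check the code and do not give the power of the comparison.

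The 10 genes, the pathway and marker lists and the tests were chosen with earlier results of these data known, so no list was tested. Pathway genes were named by rule: per comparison and list, the 3 called genes with the largest difference, above the background bound on every array of the higher group and of 1 sign in both sets. For likeness, the 3 nearest genes with a name were taken. The labels number the experiments, so arrays of 1 number come from the same experiment and are paired. Residuals of the 16 pairs correlated at 0.486 to 0.802 with group means removed, and at −0.147 to 0.410 with set means removed too, with 8 above 0.1. Alternatives tried were no set term, a block for the experiment (fixed, then random), each set alone, array centring, quantile normalization, a filter on dim genes, the mean of probe sets, a trended robust variance, 2 groups at a time and each experiment left out. Leaving out the Wntlow arrays of experiments 3 and 4, and the interaction of group and set, were added after the data were seen.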

Additional observations from a re-analysis of the deposited data

Results flagged for a closer look

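In 14 of 120 groups of 6 arrays examined (the 10 genes and the pathway genes named by rule, values less the mean of their set), 1 array stood apart from the other 5 by Dixon's criterion, which chance meets in about 1 in 20 groups. Among the 10 genes these were Bmpr1a in the Wntnegative array of experiment 9, at 7.38, the lowest of its group in that set, and Smad7 in the Wntnegative array of experiment 3, at 6.95. The call of Smad7 in Wnthigh against Wntnegative cells was lost without experiment 3 (adjusted p = 0.0919), as it was without experiment 2, 7, 8 or 9.

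Of the other pathway genes, Wntlow arrays stood apart for Acvr1b (8.27) and Skil (8.15) in experiment 3, Ltbp4 (6.05) and Tgfb1 (7.73) in experiment 4, Bmp5 (12.30) in experiment 7 and Id4 (4.07) in experiment 8. The Wnthigh array of experiment 4 stood apart for Itgb6 (8.01) and Smurf1 (9.55). Wntnegative arrays stood apart for Hey1 (4.84) in experiment 5, Col4a1 (6.30) and Itgb6 (7.99) in experiment 7 and Bmpr1b (4.10) in experiment 8. Experiment 4 thus gave 4 of these values.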

How the results depend on the processing

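Without the term for the set of experiments, 2824, 1061 and 1351 genes were called for Wnthigh against Wntnegative, Wntlow against Wntnegative and Wnthigh against Wntlow, and 4, 2 and 2 of the 10 genes (2 and 2 with a log2 difference of at least 1 for Wntlow against Wntnegative and Wnthigh against Wntlow). In experiments 7 to 9 alone 7906 and 4471 genes were called in the comparisons with Wntnegative. In experiments 2 to 5 alone 2532 genes were called for Wntlow against Wntnegative, with 2 of the 10 genes (2 by at least 1), and 3291 for Wnthigh against Wntlow. These fits have fewer arrays or carry the offset between the sets as spread. With the experiment as a replicate block, which follows the pairing of arrays, 11573, 8002 and 8139 genes and 8, 7 and 5 of the 10 genes were called, and of the calls among the 10 genes only that of Smad7 changed.

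Leaving out each experiment in turn gave 7 to 9, 6 to 7 and 4 to 6 called genes of the 10, and 10772 to 11618, 6071 to 7660 and 7178 to 8582 of all genes. Signs turned only for differences that were not called as reported: Bmp4 in Wntlow against Wntnegative cells (−0.08 to 0.06 over the experiments left out, 0.06 without replicate 3, 0.01 without replicate 8, 0.01 without the Wntlow array of experiment 4 and 0.26 without those of experiments 3 and 4), Smad7 in the same comparison (0.00 in experiments 7 to 9 alone and −0.03 to 0.01 over the experiments left out, 0.01 without replicate 3) and Bmpr1a in Wnthigh against Wntlow cells (0.01 in experiments 7 to 9 alone, −0.10 to 0.01 over the experiments left out, 0.01 without replicate 4, and 0.00 without the Wntlow array of experiment 4). The cause was not tested. Over 30 differences of the 10 genes and 20 settings, 529 of 600 values kept sign and side of the threshold, 57 lost the call, 5 gained it and the 9 above turned. Tgfb2 in Wnthigh and Wntnegative arrays lay near the background bound, which limits how its differences from Wntlow can be read.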

Other observations

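Some further genes of the listed pathways, chosen here after their values were seen, followed the order of the reporter groups. Inha, the inhibin alpha subunit gene, averaged 7.82 ± 1.10 in Wnthigh, 6.44 ± 0.59 in Wntlow and 5.69 ± 0.50 in Wntnegative arrays (SD, n = 6), and rose by 2.13 in Wnthigh against Wntnegative cells (limma, adjusted p = 5.32e-06) and by 1.38 against Wntlow cells (adjusted p = 0.000647). Smad4, the SMAD that either branch shares, rose by 0.41 in Wnthigh (adjusted p = 2.12e-05) and by 0.22 in Wntlow cells (adjusted p = 0.00789) against Wntnegative cells. Smad3, a TGF-beta SMAD, was lower by −0.87 in Wnthigh (adjusted p = 1.6e-06) and −0.31 in Wntlow cells (adjusted p = 0.0243), and Tgfbr1, the type I receptor of TGF-beta, by −0.69 (adjusted p = 3.08e-05) and −0.40 (adjusted p = 0.00783). Id4 rose by 0.74 in Wnthigh (adjusted p = 5.44e-07) and by 0.37 in Wntlow cells (adjusted p = 0.00155) against Wntnegative cells, as Id1 and Id3 did. Its highest Wntlow array of experiments 7 to 9 was only at 4.07, near the background bounds of that set (3.66 to 3.99), which limits how the rise in Wntlow cells can be read.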
